A study of Mus musculus with 6 samples.

Results

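Rab GTPases are the largest branch of the Ras superfamily of small GTP-binding proteins and mark the membranes of a cell: each Rab sits on a particular vesicle or organelle and, when bound to GTP, recruits the effectors that move, tether and fuse it. Exchange factors load a Rab with GTP, GTPase-activating proteins switch it off, an escort protein and a geranylgeranyl transferase attach the lipid tail that anchors it, and GDP dissociation inhibitors return it to the cytosol. In nerve terminals, Rab3 and Rab27 proteins ride on synaptic vesicles and act in transmitter release, while Rab5, Rab4, Rab11, Rab35 and Rab7 act along the endosomal route that recycles or degrades vesicle membrane.

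The Rab genes were chosen by name: every non-control probe whose gene name on the array was Rab followed by a number and at most a letter and a further digit, which leaves out regulators such as Rab3gap1. This gave 57 gene names and 82 probes. A probe was kept when the scanner software called it well above background on at least 3 arrays, and 74 probes of 52 genes passed, of 20975 genes measured in all. The filter took no account of group. Of 59 Rab symbols in the RefSeq table, Rab42 and Rab7b carry other names on this array and so fell outside the rule. Rab1 and Rab7l1, as the array names them, are called Rab1a and Rab29 here.

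Total RNA of mouse brain synaptosomes was hybridised to 6 one-colour (Cy3) arrays, 3 labelled knock-in (KI) and 3 labelled wild type (WT). Synaptosomes are resealed nerve terminals, with postsynaptic membrane still attached, that are prepared from homogenised brain. The title of the series concerns microRNA regulation of FMR1 in fragile X-associated tremor/ataxia syndrome, so the comparison asks how terminal transcripts differ between the knock-in and wild type. The knocked-in allele, its promoter, the strain, the age of the mice and whether a sample pooled animals are not given in the sources used here, so p-values cover no more than the scatter among these 6 samples, part or all of which may be technical. Their sample names and the study design call the mutant samples knock-in, which is used here, although the labels enter them as knock-out under genotype. The labels give an RNA integrity number of 10 for every sample and 0.2 µg of input RNA for all but knock-in replicate 1, where the amount reads 0.0 µg.

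One slide held all 3 knock-in arrays with wild-type replicate 3, and a second slide held wild-type replicates 1 and 2. The 75th percentile of the processed signal was 823 to 910 on the first slide and 578 to 580 on the second, and no spot was saturated. Of 8 nerve terminal markers 8 were measured, with summed linear signals of 575 to 668 in knock-in and 588 to 729 in wild type, in units of the 75th percentile. Glial RNA was present too: 7 of 7 oligodendrocyte markers were measured, with sums of 197 to 269 in knock-in and 167 to 239 in wild type. All 12 markers of striatal medium spiny neurons were measured, and their median, relative to the mean of the 6 arrays, was 1.83, 0.36 and -1.0 for knock-in replicates 1 to 3 against 1.37, -1.26 and -1.32 on the wild-type arrays (log2). Replicate 1 was the highest of each group, but knock-in replicates 2 and 3 also lay above wild-type replicates 2 and 3, and 12 of 12 striatal markers had a higher mean in knock-in, with a median difference of 0.83. Oligodendrocyte markers were likewise higher in 7 of 7, with a median difference of 0.27. None of these markers passed the adjusted limma threshold, and their part in the Rab values was not tested. Markers of other sources were mostly measured too: 5 of 6 for endothelium and 7 of 8 for choroid plexus. For cerebellum and for neuronal nuclei and somata, 3 of 4 were measured in each. Their median differences were -0.04, 0.48, -0.004 and -0.12, in that order. Only Tek, Aqp1, Gabra6 and Miat, 1 marker of each list in the same order, did not reach the detection filter.

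Rab promoters were searched for short motifs to show what the genes share outside their signal. RefSeq (GRCm38.p6) promoters, from 250 bases before to 50 after the annotated start, matched 47 of the 57 names. A gene counted as holding a motif when any of its promoters did. The share beside each count is over all 27025 genes with a promoter, measured on this array or not. The number of promoters per gene was not matched between the sets. The GC box GGGCGG stood on either strand in a promoter of 35 of these genes (74.47%), against 38.2% of 27025 genes with a promoter. The CCAAT letters did so in 25 (53.19% against 41.06%). The TATA letters TATAAA stood in promoters of 3 (6.38% against 15.67%), Rab39b, Rab3b and Rab7. The full cAMP response element TGACGTCA, which reads the same on both strands, stood in Rab5a and Rab25 (4.26% against 2.03%). None of the motifs contains another. The windows below are those of the full TATA and cAMP letters, the least frequent of these motifs among Rab promoters, that lie wholly before the start in the direction of the gene, which left out the TATA letters of Rab39b and Rab7; capitals mark the motif, and each runs 5′ to 3′ on the strand of its gene.
Rab3b, chr4:108878938-108878967, plus strand: atgtgggcagatTATAAAagtcacccagat
Rab5a, chr17:53479195-53479224, plus strand: agcggcggaaaTGACGTCAcggcgttcttc
Rab25, chr3:88548346-88548375, minus strand: tttaacctgtcTGACGTCAtcatcgctcca
The Rab3b motif begins 120 bases before the annotated start, the Rab5a motif 28 bases and the Rab25 motif 85 bases. Rab3b and Rab5a had bright probes on this array, whereas Rab25 did not pass the filter. A match is a description of letters and not of a bound site.

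Most of the family was detected. Of the 52 kept genes, 50 were well above background on all 6 arrays; Rab13 missed it on wild-type replicate 2 and Rab27a on 1 knock-in array. The 5 genes that were not kept, Rab17, Rab19, Rab20, Rab25 and Rab44, were above background on 0 arrays. Rab17 and Rab25 are best known from polarised epithelia.

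Signals were read as log2 of the processed intensity minus the array's 75th percentile, with a gene represented by its brightest kept probe. Brightness depends on the probe as well as on the transcript, so the order of genes is an order of probe signals and not of transcript copies. The median Rab gene stood at the 74.1 percentile of all 20975 genes, 25 of 52 lay above the 75th percentile of gene signals and 12 below their median. The 8 brightest were Rab3a, Rab6b, Rab15, Rab6a, Rab14, Rab11b, Rab5c and Rab3c. The plot of all signals by role shows that the brightest probes were spread over exocytosis, Golgi, recycling and early endosome genes.

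**Figure D1:**
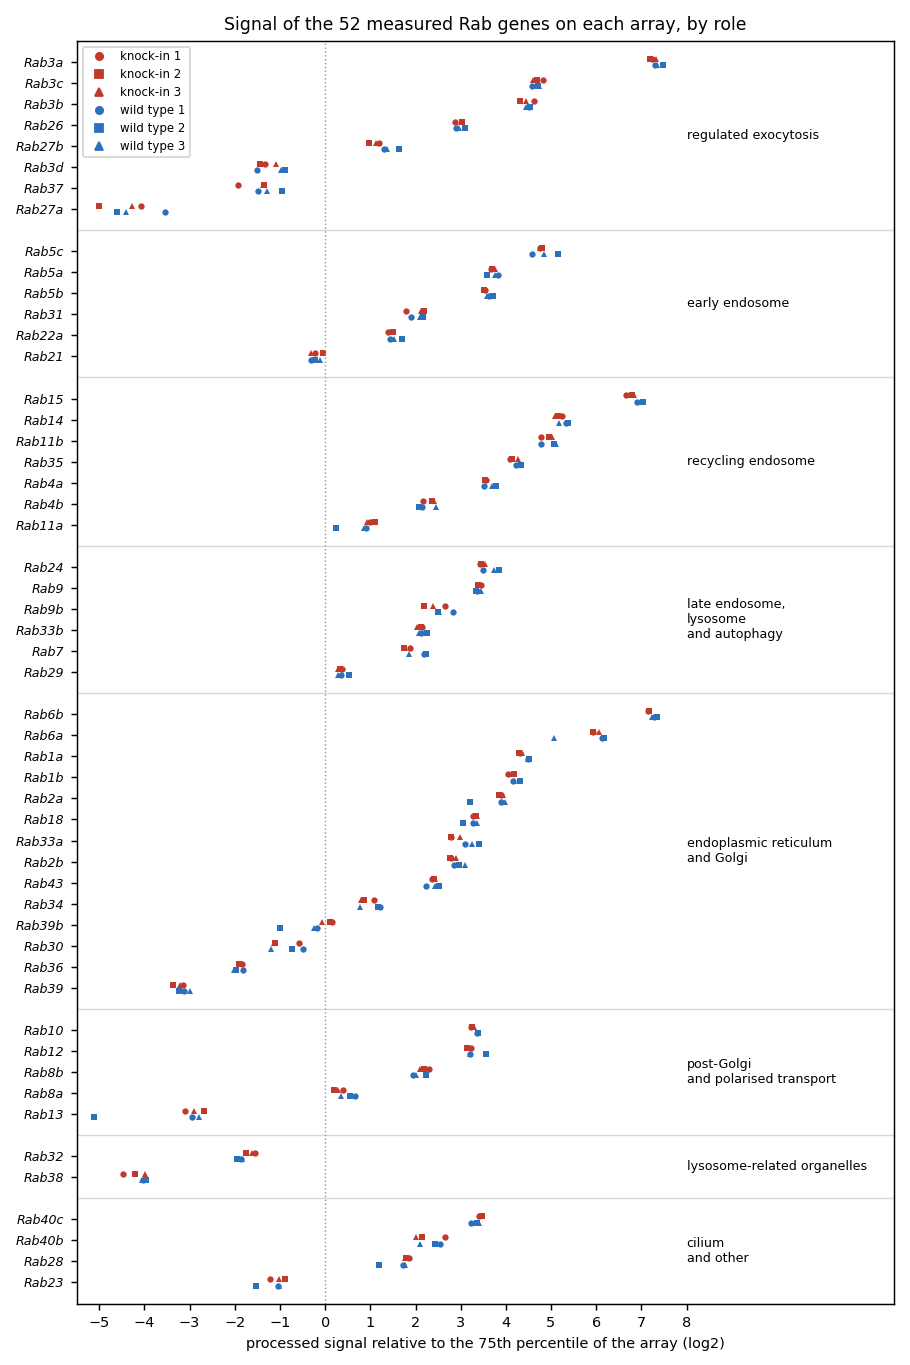
Signal of each of the 52 measured Rab genes on each of the 6 arrays (horizontal axis, log2 relative to the 75th percentile of the array), grouped by role; red marks are knock-in and blue wild-type arrays, and the marker shape gives the replicate. Rab3a, Rab6b and Rab15 lie near 7, Rab27a and Rab38 near -4, and Rab13 and Rab27a show the widest spread over the arrays.

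No Rab gene passed the threshold between knock-in and wild type. Differences were tested with limma on every measured gene, with p-values adjusted (Benjamini-Hochberg) over 20975 genes and a threshold of 0.05. Of the 52 Rab genes 0 passed, and the smallest adjusted p was 0.416, for Rab33a; over all genes 2 passed, or 0.00954%. At an unadjusted limma p under 0.05 there were 0 Rab genes higher and 2 lower in knock-in, Rab33a and Rab27b, which is 3.85% of the family. Over all genes 4.45% were higher and 6.40% lower at that level, so the family's share was no larger than the background. A missed threshold does not show that the groups are equal, and the 95% interval of the Rab3a difference, for example, ran from -0.36 to 0.11.

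More Rab genes had a lower than a higher mean in knock-in, a split that moved with the background correction and normalization. The mean was lower in knock-in for 35 Rab genes and higher for 17, that is 67.3% lower against 59.1% of all genes. With the authors' own value table in place of the processed intensities the split was 25 lower and 27 higher, and with quantile or normexp processing 31 and 21. Scaling by the median of detected probes left it at 35 and 17. The median Rab difference was -0.10 (quartiles -0.15 and 0.04) and the median over all genes -0.05 (quartiles -0.19 and 0.12). The median size of a difference was 0.12 for Rab genes and 0.16 for all genes, with median standard errors of 0.12 and 0.14. Wild-type replicate 2 read highest of the 6 arrays for 24 of the 52 Rab genes (46.2%, against 38.4% of all genes), and without it the median Rab difference was -0.04, against -0.02 over all genes. In RNA of a whole synaptosome preparation, fewer terminals of a type and less RNA per terminal cannot be told apart.

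**Figure D2:**
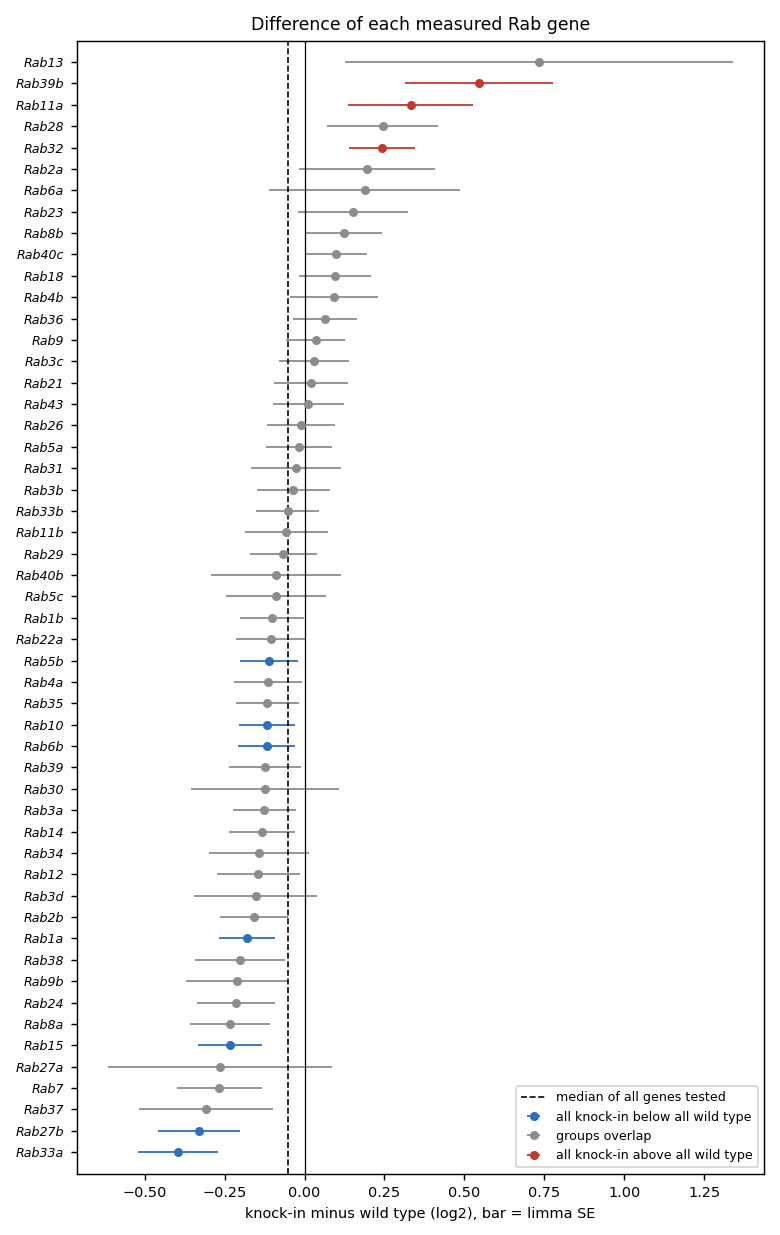
Difference of each measured Rab gene, knock-in minus wild type in log2 units (points), with the limma standard error (bars), in order of size; the dashed line is the median of all genes at -0.05. Colour shows whether the 3 knock-in arrays all lay above, all below or overlapped the 3 wild-type arrays; 42 of 52 genes overlapped.

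The groups did not overlap for 10 Rab genes. All 3 knock-in values lay below all 3 wild-type values for 7 (13.5% of the family, against 12.5% of all genes): Rab33a, Rab27b, Rab15, Rab1a, Rab10, Rab6b and Rab5b. All lay above for 3 (5.77%, against 7.87% of all genes): Rab32, Rab39b and Rab11a. Both shares were near the background and are no result about the family. With 1 array left out the comparison has fewer values, so neither the counts nor the shares over all genes can fall. Without knock-in replicate 1, 11 Rab genes lay below and 5 above, against 17.3% and 11.7% of all genes. Without knock-in replicate 3, 12 of the 52 Rab genes lay below, against 20.3% of all genes. Without wild-type replicate 1, 18 of the 52 did, against 25.3% of all genes. Without wild-type replicate 3, 12 lay below and 8 above, against 22.4% and 13.2% of all genes. Rab33a on the lower side and Rab32 and Rab39b on the higher side were without overlap in each of the 16 settings in which overlap could be read. Most of these settings could not have changed that. Leaving out an array cannot create overlap, and other moderation, slide as a random block and other probe rules kept the values of these single-probe genes. Only normexp, quantile normalization, median scaling and the value table could have changed it.

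**Figure D3:**
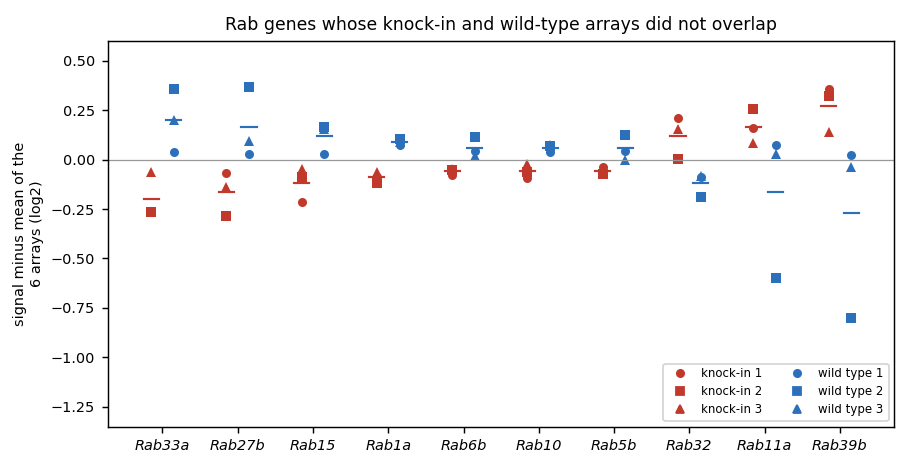
Signals of the 10 Rab genes whose groups did not overlap, each array drawn as its signal minus the mean of the 6 arrays of that gene (log2); red is knock-in, blue wild type, marker shape the replicate and the bar the group mean. For Rab11a and Rab39b, wild-type replicate 2 lies far below the other 5 arrays; for Rab1a the arrays of each group lie within 0.06 of each other.

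Rabs of regulated exocytosis come first, because they define the secretory side of a terminal. All 8 were measured, 1 with a higher and 7 with a lower mean in knock-in, and their median difference was -0.14. With normexp processing that median was -0.04 and from the authors' values 0.045. Rab3a, the synaptic vesicle Rab that binds Rim and rabphilin, gave the brightest probe of the family. Arrays are given here and below in the order of replicates 1, 2 and 3. Rab3a read 7.24, 7.19 and 7.32 on the knock-in arrays and 7.31, 7.47 and 7.35 on the wild-type arrays. Only the highest knock-in array overlapped the lowest wild-type array. The difference was -0.13 (SE 0.10, limma adjusted p = 0.604), and it was 0.05 with the authors' value table. The probe lies on chromosome 8 at 73282447 to 73282506 of build mm9.

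The other Rab3 paralogs behaved alike in that their groups overlapped. Rab3b read 4.63, 4.32 and 4.45 on the knock-in arrays against 4.52, 4.54 and 4.44 on the wild-type arrays, a difference of -0.03 (SE 0.11). Rab3c read 4.83, 4.70 and 4.60 against 4.57, 4.72 and 4.74, a difference of 0.03 (SE 0.11). In both, the knock-in arrays were more widely spread than the wild-type arrays, and the sign turned under some settings. Rab3d, better known from secretory granules of gland cells, was dim, at -1.33, -1.44 and -1.09 against -1.51, -0.90 and -0.99, with a difference of -0.15 (SE 0.19). Without wild-type replicate 2 this was -0.04, without wild-type replicate 1 it was -0.34, and within the slide shared with wild-type replicate 3 it was -0.30.

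Rab27b, which acts beside Rab3 on secretory vesicles, had the second smallest p of the family. It read 1.19, 0.98 and 1.12 on the knock-in arrays and 1.29, 1.63 and 1.36 on the wild-type arrays, so every knock-in array lay below every wild-type array. The means were 1.10 ± 0.11 and 1.43 ± 0.18 (SD, n = 3 arrays each), and wild type exceeded knock-in 1.26-fold (log2 difference -0.33, SE 0.13, limma adjusted p = 0.450). A second Rab27b probe of almost the same brightness, nearer the start of the transcript (base 2217 against base 6903), gave -0.01 (SE 0.10) with overlapping groups. With normexp processing or the authors' value table that second probe was the brighter, and the gene's difference was 0.02 and 0.01. The Rab27b value is therefore the value of 1 probe.

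Rab27a, the paralog best known from melanosomes and cytotoxic granules, was the dimmest member kept, with -0.26 (SE 0.35). Its sign turned without knock-in replicate 2 or wild-type replicate 1. Rab26, which links synaptic vesicles to autophagy, differed by -0.01 (SE 0.11). Rab37, a granule Rab, differed by -0.31 (SE 0.21) and by -0.36 (SE 0.19) at a second probe that shares most of its bases, with overlapping groups at both.

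Early endosome Rabs, which gather newly internalised membrane, held 6 measured genes, 1 with a higher and 5 with a lower mean in knock-in. Their median difference was -0.06, and it was -0.017 with normexp and -0.007 from the authors' values. Rab5a read 3.67, 3.69 and 3.75 on the knock-in arrays against 3.82, 3.58 and 3.77 on the wild-type arrays, a difference of -0.02 (SE 0.10). Rab5c read 4.75, 4.81 and 4.75 against 4.58, 5.16 and 4.84, a difference of -0.09 (SE 0.16) that became 0.06 without wild-type replicate 2. For both genes the wild-type arrays enclosed all knock-in arrays. Rab21, Rab22a and Rab31 differed by between -0.11 and 0.02.

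Rab5b was the member whose probes disagreed most. Its brightest probe, on chromosome 10 at 128114252 to 128114311 of mm9 and starting at base 3103 of the transcript, read 3.55, 3.51 and 3.53 on the knock-in arrays against 3.63, 3.71 and 3.58 on the wild-type arrays. The groups did not overlap, but the difference was only -0.11 (SE 0.09, limma adjusted p = 0.614) and -0.05 within the shared slide. At the probe from base 1019 (128116336 to 128116395), the knock-in arrays read -0.77, -1.03 and -0.78 and the wild-type arrays 0.10, 0.81 and -0.52. That is a difference of -0.99 (SE 0.32), again without overlap, with a limma adjusted p of 0.453 over 29318 probes. A probe from base 685, whose coordinates run from 128116670 to 128118469, more than its 60 bases, differed by -0.66 (SE 0.31), and one from base 1821 by -0.01 (SE 0.13). The larger differences were thus read at the probes nearest the transcript's start, where the wild-type arrays of the second slide were the highest. Against wild-type replicate 3, which shared the slide of the knock-in arrays, the gap at the base 1019 probe was smaller, since that array read -0.52. A part of slide in this difference was not tested.

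Recycling endosome Rabs, which return membrane to the surface, held 7 measured genes, 2 with a higher and 5 with a lower mean in knock-in, and a median difference of -0.11. Rab15, a brain-enriched Rab of the endocytic route, was the third brightest member. It read 6.66, 6.79 and 6.83 on the knock-in arrays and 6.90, 7.04 and 7.03 on the wild-type arrays, without overlap. The difference was -0.23 (SE 0.10, limma adjusted p = 0.468), -0.14 with quantile normalization and -0.12 with the authors' value table. A dim second probe of Rab15, from base 907, gave -0.08 (SE 0.21) with overlapping groups.

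Rab11a, the Rab of the slow recycling compartment, read 1.00, 1.09 and 0.92 on the knock-in arrays and 0.91, 0.24 and 0.86 on the wild-type arrays. The groups did not overlap, but wild-type replicates 1 and 3 lay just under the knock-in arrays and wild-type replicate 2 set most of the difference of 0.33 (SE 0.20, limma adjusted p = 0.526). Without that array the difference was 0.12, and within the shared slide 0.14. Rab11b, the paralog prominent in brain, read 4.79, 4.96 and 5.02 against 4.78, 5.06 and 5.10, a difference of -0.06 (SE 0.13). The paralogs thus differed in sign, a contrast that was not tested.

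Rab14, Rab35 and Rab4a, of the endosomal recycling routes, differed by -0.13 (SE 0.10), -0.12 (SE 0.10) and -0.11 (SE 0.11), with overlap in each. Within the shared slide the Rab14 difference was -0.02. Rab4b differed by 0.09 (SE 0.14). A dimmer Rab4a probe from base 620 gave 0.15 (SE 0.11), so the sign at Rab4a depended on the probe.

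Rabs of late endosomes, lysosomes and autophagy held 6 measured genes, 1 with a higher and 5 with a lower mean in knock-in, and a median difference of -0.14. Rab7, which directs late endosomes to lysosomes and retrograde axonal carriers, read 1.88, 1.74 and 1.89 on the knock-in arrays against 2.20, 2.24 and 1.86 on the wild-type arrays. The overlap came from wild-type replicate 3, the only wild-type array on the knock-in slide, which read like the knock-in arrays. Over all arrays the difference was -0.27 (SE 0.13, limma adjusted p = 0.499), and within that slide it was -0.03. Slide and genotype cannot be told apart for the difference from wild-type replicates 1 and 2. Rab24, a Rab of autophagy, read 3.43, 3.46 and 3.55 against 3.49, 3.84 and 3.74, a difference of -0.21 (SE 0.12), and wild-type replicate 1 overlapped the knock-in arrays. Rab29, which recruits the kinase LRRK2 to membranes, differed by -0.07 (SE 0.11), Rab33b by -0.05 (SE 0.10) and Rab9b by -0.21 (SE 0.16).

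Rab9, which returns receptors from endosomes to the Golgi, had 3 kept probes that did not go the same way. They differed by 0.03 (SE 0.10), -0.09 (SE 0.11) and 0.20 (SE 0.13), the last without overlap, although all start within bases 895 to 1285 of the transcript.

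Rabs of the endoplasmic reticulum and Golgi were the largest group, with 14 measured genes, 6 with a higher and 8 with a lower mean in knock-in, and a median difference of -0.11. That median was -0.03 with quantile normalization, 0.004 from the authors' values and between -0.11 and -0.05 with 1 array left out. Rab33a, a neuronal Rab of Golgi-derived vesicles, had the smallest p of the family. It read 2.78, 2.79 and 2.99 on the knock-in arrays and 3.09, 3.41 and 3.25 on the wild-type arrays, with every knock-in array below every wild-type array. The means were 2.85 ± 0.12 and 3.25 ± 0.16 (SD, n = 3 arrays each), and wild type exceeded knock-in 1.31-fold. The log2 difference was -0.39 (SE 0.12, 95% interval -0.69 to -0.10) with a limma adjusted p of 0.416. Within the slide shared by both groups it was -0.40, and over the other settings it lay between -0.48 and -0.32. Its single probe covers bases 803 onward of the transcript, at 45883240 to 45883299 on chromosome X (mm9).

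Rab39b, a neuronal Rab whose loss causes X-linked intellectual disability with early parkinsonism in people, went the other way. It read 0.15, 0.12 and -0.07 on the knock-in arrays and -0.18, -1.004 and -0.24 on the wild-type arrays, without overlap. The difference was 0.54 (SE 0.23), or 1.46-fold, with a limma adjusted p of 0.465. Wild-type replicate 2 lay far below the other wild-type arrays, and the difference was 0.28 without it and 0.31 within the shared slide. Its probe, at 72818182 to 72818241 on the same chromosome, starts at base 2517 of the transcript. The other members on chromosome X, Rab9 and Rab9b, are given above with the late endosome genes.

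Rab1a, which carries cargo from the endoplasmic reticulum to the Golgi, showed the tightest arrays of the non-overlapping genes. It read 4.32, 4.29 and 4.35 on the knock-in arrays and 4.48, 4.51 and 4.50 on the wild-type arrays. The gap between the groups was larger than the spread within either, but limma's moderated error, which borrows from all genes, gave a difference of -0.18 (SE 0.09, adjusted p = 0.492). That difference was the same within the shared slide, and -0.11 with quantile normalization. Rab1b, the paralog, differed by -0.10 (SE 0.10) with overlap.

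Rab6b, the neuronal form of the retrograde Golgi Rab, read 7.15, 7.17 and 7.18 against 7.27, 7.34 and 7.24, a difference of -0.12 (SE 0.09) that was 0.02 with the authors' value table. Rab6a read 5.93, 5.93 and 6.07 on the knock-in arrays and 6.14, 6.16 and 5.07 on the wild-type arrays. Wild-type replicates 1 and 2 lay above the knock-in arrays and wild-type replicate 3 far below them, so the difference of 0.19 (SE 0.30) became -0.17 without that array. Within the shared slide, where that low array is the only wild-type array, it was 0.91 (SE 0.12, limma adjusted p = 0.423). A dimmer Rab6a probe, from base 3317, gave -0.27 (SE 0.15) and did not show the low value in wild-type replicate 3.

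Rab2a, which acts between the endoplasmic reticulum and Golgi, differed by 0.20 (SE 0.21) because of a low wild-type replicate 2, by -0.05 without it and by -0.09 within the shared slide. Rab2b differed by -0.16 (SE 0.11) and by -0.28 within the shared slide. The other members of the group, Rab18, Rab30, Rab34, Rab36, Rab39 and Rab43, lay between -0.14 and 0.10, all with overlap. Rab30 read highest in wild-type replicate 1 and knock-in replicate 1 (-0.50 and -0.57, the other 4 arrays between -1.20 and -0.73), the arrays highest in striatal markers. A second, dimmer Rab30 probe gave -0.45 (SE 0.30). At that probe wild-type replicate 2 (-1.32) lay above knock-in replicate 1 (-1.58). The part of striatal RNA in the Rab30 signal was not tested.

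Post-Golgi Rabs include several substrates of LRRK2. Of 5 measured genes 2 had a higher and 3 a lower mean in knock-in, with a median difference of -0.12, which was -0.03 without wild-type replicate 2 and 0.03 with the authors' value table. Rab10, the LRRK2 substrate that also serves axonal membrane growth, read 3.22, 3.25 and 3.29 on the knock-in arrays and 3.35, 3.38 and 3.39 on the wild-type arrays. The groups did not overlap, and the difference was -0.12 (SE 0.09, limma adjusted p = 0.590). A second, dimmer Rab10 probe gave -0.19 (SE 0.15) with overlap.

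Rab8a, which carries cargo to the plasma membrane and the cilium, differed by -0.23 (SE 0.12) at the probe from base 578 and by 0.05 (SE 0.14) at a probe of similar brightness from base 1242. With normexp processing or the authors' value table the second probe was the brighter, and the gene's difference was then 0.04 and 0.03. Within the shared slide it was -0.06 at the first probe. Rab8b differed by 0.12 (SE 0.12) at its bright probe and 0.43 (SE 0.16) at a dim one, with overlap at both. Rab12, another LRRK2 substrate, differed by -0.15 (SE 0.13).

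Rab13, a Rab of cell junctions, had the largest difference of the family, 0.73, with the largest standard error (0.61). It read -3.10, -2.67 and -2.89 on the knock-in arrays and -2.95, -5.12 and -2.79 on the wild-type arrays, where replicate 2 was not above background. Without that array the difference was -0.02, within the shared slide it was -0.10, and a second Rab13 probe gave 0.12 (SE 0.13).

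Rab32 and Rab38, of melanosomes and other lysosome-related organelles, were dim. Rab32, which is also expressed in myeloid cells, read -1.56, -1.76 and -1.61 on the knock-in arrays and -1.85, -1.96 and -1.85 on the wild-type arrays, without overlap. The difference was 0.24 (SE 0.10), or 1.18-fold, with a limma adjusted p of 0.462. Of 7 microglial markers 5 had a higher mean in knock-in, with a median difference of 0.17, and their part in the Rab32 difference was not tested. Rab38 differed by -0.20 (SE 0.14). The median of the pair was 0.02, and it was -0.09 with normexp processing.

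Rab28 and Rab23, of the cilium, and Rab40b and Rab40c, which carry a domain of ubiquitin ligase adaptors, had a median difference of 0.13, with 3 higher and 1 lower, and of 0.03 within the shared slide. Rab28 read 1.86, 1.79 and 1.77 on the knock-in arrays and 1.73, 1.18 and 1.77 on the wild-type arrays, and its difference of 0.24 (SE 0.17) was 0.06 without wild-type replicate 2 and 0.03 within the shared slide. Rab40c differed by 0.10 (SE 0.10). Rab40b differed by -0.09 (SE 0.20). It was highest in knock-in replicate 1 and wild-type replicate 1 (2.65 and 2.55), as the striatal markers were. But wild-type replicate 2 read 2.43, above knock-in replicate 2 at 2.15. The striatal median ran the other way on those arrays, at -1.26 and 0.36 in that order. Knock-in replicate 3 and wild-type replicate 3 read 2.02 and 2.11. The part of striatal RNA in the Rab40b signal was not tested.

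Probes of 1 gene were a check on these readings. Of the 18 Rab genes with several kept probes (40 probes), 6 had probes of both signs: Rab29, Rab4a, Rab5a, Rab6a, Rab8a and Rab9. In 8 genes the probes differed by more than 0.3. Of all 74 kept probes 46 were lower and 28 higher in knock-in (62.2% lower, against 58.3% of all 29318 kept probes). Wholly lower were 8 (10.8%, against 12% of all probes) and wholly higher 6 (8.11%, against 7.93%), shares near the background. Of the Rab probes 0 passed an adjusted limma p of 0.05 over 29318 probes, where 2 did in all (0.00682%). The wholly higher probes include dim second probes of Rab23 (0.49, SE 0.25) and Rab43 (0.28, SE 0.15). Over 3291 pairs of probes of different Rab genes, the longest run of identical bases was 11 of 60. Within a gene, a pair of kept probes shared a run of 55 bases for Rab37, 54 for Rab3c and 37 for Rab9. The probes of such a pair are not separate checks of each other.

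**Figure D4:**
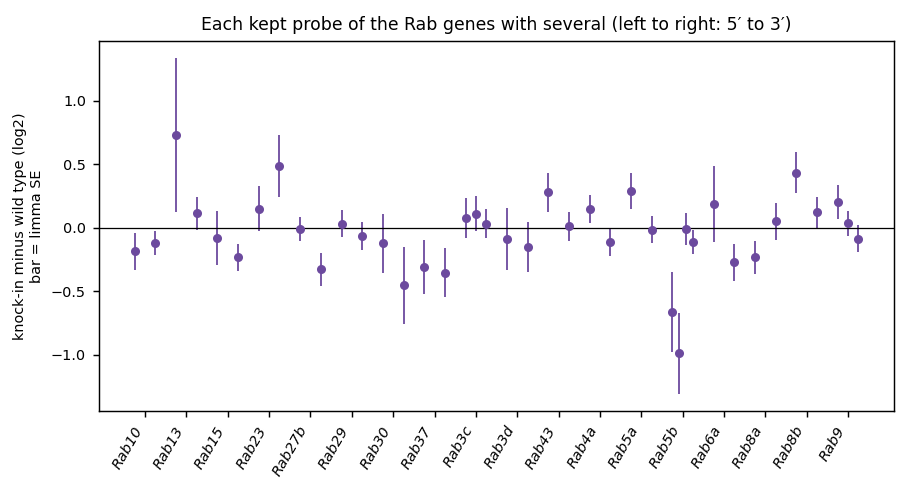
Difference of every kept probe of the 18 Rab genes with several kept probes (vertical axis, knock-in minus wild type in log2 units, bars are the limma standard error), placed from the 5′ to the 3′ end of the transcript within a gene. The Rab5b probes reach from -0.99 to -0.01, and Rab6a, Rab8a and Rab4a each have a probe on either side of 0.

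Genes that act on Rabs were read from lists of their own, and none passed the adjusted threshold. The prenylation and GDP dissociation genes, 8 of 8 measured, had 4 higher and 4 lower and a median difference of -0.04. Chm, the Rab escort protein lost in choroideremia, read 0.12, 0.20 and -0.08 on the knock-in arrays and -0.63, -1.07 and -0.37 on the wild-type arrays, a gap without overlap of 0.77 (SE 0.19) or 1.70-fold, with a limma adjusted p of 0.399. Rabggtb, the beta subunit of the geranylgeranyl transferase, was also without overlap at 0.45 (SE 0.27), with wild-type replicate 2 low at 0.56. Gdi2, a GDP dissociation inhibitor, was without overlap on the lower side at -0.17 (SE 0.11).

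Of 33 exchange factors 27 were measured, 9 higher and 18 lower, with a median difference of -0.04. Rin2, a Rab5 exchange factor, read 1.33, 1.54 and 1.45 on the knock-in arrays and 1.04, 0.77 and 1.05 on the wild-type arrays, a difference of 0.49 (SE 0.12, limma adjusted p = 0.399). Sbf2 and Gapvd1 followed at 0.28 and 0.26, also without overlap. Of 36 GTPase-activating proteins 35 were measured, 14 higher and 21 lower, with a median of -0.03. Tbc1d15, which acts on Rab7, read 1.27, 1.31 and 1.08 on the knock-in arrays and 0.60, -0.27 and 0.56 on the wild-type arrays, a difference of 0.93 (SE 0.24, limma adjusted p = 0.399). Usp6nl, which acts on Rab5, differed by 0.42 (SE 0.14) and Sgsm3 by -0.25 (SE 0.10), both without overlap.

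Of 46 effectors 45 were measured, 21 higher and 24 lower, with a median of -0.04. Melanophilin (Mlph), which ties Rab27a to myosin Va, differed by 1.39 (SE 0.34), the largest difference of these lists, but its signal was near background, above it on 2 of 3 wild-type arrays. Micall2, a Rab13 effector, differed by -0.55 (SE 0.15) and Sytl3, a Rab27 effector, by -0.54 (SE 0.16), both without overlap. The 3 kinase and phosphatase genes that set Rab phosphorylation differed by -0.22 (SE 0.18) for Ppm1h, 0.13 (SE 0.14) for Lrrk1 and -0.04 (SE 0.09) for Lrrk2. Tbc1d15, Mlph, Chm and Rin2, the regulators of smallest p, read higher in knock-in, but Micall2 and Sytl3, the next by p, read lower. Rab33a and Rab27b, the Rab genes of smallest p, also read lower. In no regulator list did more genes read higher than lower, and a contrast between regulators and Rab genes was not tested.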

How the data were processed

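RNA of 3 knock-in and 3 wild-type samples was measured on 1 array each. Per the file headers, Agilent Feature Extraction 10.7.3.1 made each deposited intensity, background-subtracted and detrended within the array and not normalized between arrays. The authors' value table is in log2 units and ranks like the raw median signal of its own array; how its columns were brought to medians of 6.55 to 6.56 is not stated in the sources used here.

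Log2 processed intensities were scaled by the 75th percentile of each array, spots of a probe were averaged without outlier flags, probes above background on at least 3 arrays were kept, and the brightest kept probe stood for a gene. Names came through RefSeq (GRCm38.p6): 27235 probes by accession, 3581 by current and 565 by older symbol, while 24300 kept the name in the file. Groups were fitted with limma 3.58.1 in R 4.3.3 with Benjamini-Hochberg adjustment over all genes, tested on simulated data first. SE is limma's moderated standard error.

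The Rab genes, role groups and regulator lists were chosen with earlier results of these data known. Genes followed through the alternatives are, by rule, the 8 of smallest p in each direction, Rab3a to Rab3d, Rab26, Rab27a, Rab27b, Rab4a, Rab5a to Rab5c, Rab7, Rab8a, Rab10, Rab11a, Rab11b and Rab35, any with probes wholly higher and wholly lower (0 genes), and the 8 brightest; regulators named are the 3 of smallest p of each list. The alternatives tried are background correction, normalization, probe filter, probe choice, moderation, the value table, slide, the replicate number as a block, and each array left out. The number of arrays limits the precision. Protein sequences were not analysed here.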

Additional observations from a re-analysis of the deposited data

How the results depend on the processing

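In all 18 alternatives 0 Rab genes passed limma's adjusted p of 0.05; over all genes 0 to 7 did. Correlations of deviations from the group means were 0.40, -0.02 and 0.25 for same-numbered arrays and between -0.40 and 0.15 for the others. They do not settle whether the replicate numbers pair the samples. With the replicate number as a block 0 Rab genes passed. The median Rab difference was again -0.096, which is fixed by the design because each number holds 1 array of each group. The slide block and slide 1 alone rest on wild-type replicate 3, and these fits and the replicate block give no overlap count.

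The median over Rab genes was -0.096, against -0.052 over all genes. It was -0.051 with normexp (against -0.080 over all genes), -0.038 with quantile normalization (against -0.021) and 0.007 from the authors' value table (against -0.010). With slide as a fixed block or slide 1 only it was -0.058 (against -0.034). With 1 array left out it was -0.098 to -0.041 (against -0.076 to -0.022). The Rab median was thus below that of all genes in the main run, but above it with normexp and from the value table. Of the 52 Rab genes, 3 were wholly lower with quantile normalization (against 10.2% of all genes) and 2 from the value table (against 9.59%). With 1 array left out 8 to 18 were (against 15.1% to 25.3% of all genes). Wholly higher were 5 with the mean of all probes (against 7.76% of all genes) and 3 to 8 with 1 array left out (against 9.10% to 13.4%). Group medians moved by more than their spread between arrays (1 SD) for regulated exocytosis (-0.039 with normexp, 0.045 from the value table), lysosome-related organelles (-0.094 with normexp), recycling (-0.020 from the value table), endoplasmic reticulum and Golgi (-0.031 with quantile normalization, 0.004 from the value table, -0.056 with the slide block or slide 1 only, -0.107 to -0.049 with 1 array left out), post-Golgi (0.025 from the value table, -0.136 to -0.025 with 1 array left out) and late endosome (-0.033 with the slide block or slide 1 only). Within that spread, early endosome was -0.017 with normexp and -0.007 from the value table, and cilium and other 0.030 with the slide block or slide 1 only.

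Of 575 values of 32 named genes 47 turned sign, in 15 genes. This share is no measure of stability. Other moderation and the replicate block leave a difference as it was, and the slide block and slide 1 only give the same estimate. With normexp, Rab13 was -0.068, Rab11b 0.013, Rab5a 0.016, Rab26 0.067, Rab8a 0.035 and Rab27b 0.022; with quantile normalization, Rab5a 0.037, Rab26 0.010, Rab3b 0.029 and Rab11b 0.016. From the value table, Rab27b was 0.011, Rab6b 0.019, Rab11b 0.061, Rab5a 0.040, Rab26 0.069, Rab27a 0.063, Rab3b 0.040, Rab3a 0.050 and Rab8a 0.025. Another probe was the brightest of Rab13, Rab27b and Rab8a under normexp and in the value table; for the other genes the cause was not tested. With the mean of probes, Rab6a was -0.042, Rab5a 0.135 and Rab4a 0.018. With slide as a fixed block or slide 1 only, Rab2a was -0.094, Rab26 0.016, Rab3c -0.035, Rab3b 0.024 and Rab13 -0.096. With 1 array left out, Rab3c ran from -0.030 to 0.085, Rab26 from -0.057 to 0.049, Rab11b from -0.155 to 0.011, Rab3b from -0.115 to 0.037, Rab27a from -0.474 to 0.056, Rab5a from -0.085 to 0.031, Rab13 from -0.017 to 1.149, Rab2a from -0.047 to 0.340, Rab5c from -0.227 to 0.059 and Rab6a from -0.174 to 0.375.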
